A study of Mus musculus with 6 samples.

Results

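The 38 genes described here form the antioxidant, glutathione and metallothionein set of the mouse substantia nigra pars compacta (SNpc), a midbrain nucleus whose dopaminergic neurons project to the striatum. The genes were taken by symbol from a list of names drawn up by function. The rule sets no threshold on a measured value, but the list was drawn up with earlier results of these data known. They are 38 of the 35049 genes counted in the laser-captured libraries and of the 37991 genes counted in the punched libraries. All 38 symbols were found in both kinds of file.

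RNA sequencing covered 6 samples in 6 groups, 1 sample each, which form 3 pairs. The first pair set SNpc cells of En1+/- mice, heterozygous for the homeobox gene Engrailed 1, against those of wild type mice, both aged 6 weeks. The second pair came from wild type mice aged 8 weeks in which Engrailed 2 protein (En2) had been infused on 1 side by osmotic pump for 7 days, and set the infused side against the contralateral side. For both pairs laser capture was used to collect neurons stained for tyrosine hydroxylase. The third pair used 1 mm punches of SNpc from 2 mm frozen slices of wild type mice aged 8 weeks, all injected with 6-hydroxydopamine (6-OHDA), which dopaminergic neurons take up and which oxidizes to reactive species. After 30 min these mice received either a 2 µl solution of bacterially produced En2 (4 µM, 300 ng) together with colominic acid (3 µg), or 0.9% NaCl vehicle. Colominic acid is named for the En2 injection and not for the vehicle, so En2 and colominic acid cannot be told apart. No punch without 6-OHDA is among the samples. The number of animals per sample is not given in the labels.

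Cells remove superoxide and peroxide through linked enzyme chains. Superoxide dismutases make hydrogen peroxide, which catalase breaks down. Glutathione peroxidases and peroxiredoxins also break it down, with reducing power from glutathione and thioredoxin. The transcription factor NRF2, encoded by Nfe2l2 and held back by KEAP1, raises many of these genes through the antioxidant response element (ARE). Metallothioneins are small cysteine-rich proteins that bind zinc and copper, and the zinc sensor MTF1 drives Mt1 and Mt2 through metal response elements (MRE). Nigral dopaminergic neurons carry a high oxidant load because dopamine itself oxidizes, and they also hold iron, which ferritin stores.

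The largest ratios of members in the punched pair belonged to Mt1, Mt2 and Slc7a11, so the promoters of these genes, with that of Mt3 for comparison, are shown first. The windows run from 250 bases before to 50 bases after the annotated start, 5′ to 3′ on the gene's own strand, from RefSeq on GRCm38.p6. They lie at chr8:94178839-94179138 on the plus strand for Mt1, chr8:94172368-94172667 on the plus strand for Mt2, chr8:94152357-94152656 on the plus strand for Mt3 and chr3:50443564-50443863 on the minus strand for Slc7a11. The 3 metallothionein genes therefore sit side by side on chromosome 8. Capitals in the metallothionein windows mark each match to the MRE core, searched as TGCACNC or TGCGCNC on both strands, where N is any base. The Slc7a11 window held no match to it, nor to the ARE core, searched as TGACNNNGC on both strands, and has no capitals.
Mt1: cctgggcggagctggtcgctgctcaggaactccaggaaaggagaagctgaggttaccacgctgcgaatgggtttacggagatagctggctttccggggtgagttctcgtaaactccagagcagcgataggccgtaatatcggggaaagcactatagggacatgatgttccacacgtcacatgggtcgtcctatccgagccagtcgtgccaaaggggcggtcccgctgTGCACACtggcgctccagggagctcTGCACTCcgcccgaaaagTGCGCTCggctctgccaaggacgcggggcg
Mt2: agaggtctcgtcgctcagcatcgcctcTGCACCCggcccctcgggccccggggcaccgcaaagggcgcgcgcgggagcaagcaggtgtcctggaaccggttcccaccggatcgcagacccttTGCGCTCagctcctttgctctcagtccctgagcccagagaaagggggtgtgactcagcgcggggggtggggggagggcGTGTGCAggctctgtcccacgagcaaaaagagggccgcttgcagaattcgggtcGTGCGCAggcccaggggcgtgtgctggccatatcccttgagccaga
Mt3: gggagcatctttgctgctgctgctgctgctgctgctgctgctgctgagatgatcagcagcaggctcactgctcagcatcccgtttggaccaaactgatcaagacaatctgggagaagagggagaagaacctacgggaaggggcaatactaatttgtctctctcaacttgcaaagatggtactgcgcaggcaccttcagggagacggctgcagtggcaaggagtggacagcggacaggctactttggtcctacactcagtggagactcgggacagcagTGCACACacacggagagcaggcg
Slc7a11: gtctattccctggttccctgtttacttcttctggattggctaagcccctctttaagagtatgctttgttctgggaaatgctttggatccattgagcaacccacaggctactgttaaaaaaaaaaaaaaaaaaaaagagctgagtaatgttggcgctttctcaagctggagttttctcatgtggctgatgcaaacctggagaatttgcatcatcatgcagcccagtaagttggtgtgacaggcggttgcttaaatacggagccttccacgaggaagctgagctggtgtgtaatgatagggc

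The Mt1 window held 3 MRE matches, the Mt2 window 4 and the Mt3 window 1. Of 32851 windows of the same length in the RefSeq table, 25.7% held at least 1, 1.97% at least 3 and 0.517% at least 4. The ARE core was found in 12.4% of all windows. Counted by gene, 8 of the 31 members with a window in the table (25.8%) held it, against 14.0% of all 27025 genes with a window. The MRE core was held by 9 of the 31 members (29.0%) against 28.2% of all genes. The 8 with the ARE core were Mt2, Nfe2l2, Txnrd1, Srxn1, Gclm, Gstm5, Prdx1 and Sod1, with TGACTCAGC in Mt2, TGACTCCGC in Nfe2l2 and TGACAAAGC in 1 of 3 Txnrd1 windows. In Gclm the ARE match overlapped 1 of the 3 MRE matches of its window. A match of letters is a description of the window and not evidence of binding. The table held no window for Msra, Gsta4, Sod3, Gclc, Hmox1, Gsr and Prdx6.

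Counts summed to between 16145262 and 21332308 per captured library and to 15927206 and 19044672 in the punched ones. Mitochondrial ribosomal RNA took 58.5% to 74.4% of the captured counts. For levels, each captured gene entered the sum of its library with 1 transcript only. Reads on its other transcripts, or on transcripts lacking a gene identifier, are not in that sum. Genes of mitochondria and of ribosomal RNA were also left out. The sums were 1510189 for wild type, 3272409 for En1+/-, 1908503 for the contralateral and 2308707 for the infused side. In the punches all reads of a gene were summed. Levels are given as CPM, reads per 1000000 of these sums. With 1 sample per group there is no replicate check, so no test of significance was made, and each ratio carries an exact 95% counting interval that covers counting error only. A gene counts as measured in a pair with at least 20 reads in 1 of its libraries. It passes the rule of size when its log2 ratio is at least 1 in size and the interval excludes 0. En1 itself had 77 wild type and 47 En1+/- reads, log2 ratio -1.70 (-2.27 to -1.17). En2 RNA gave 0.20 (-0.58 to 1.04) there. On the infused side En2 RNA, with 62 contralateral and 31 infused reads, gave -1.16 (-1.84 to -0.53), and En1 gave 0.66 (0.25 to 1.09). In the punches En1 gave 0.40 and En2 gave 0.15. For the contralateral side over wild type En2, with 20 and 62 reads, gave 1.31 (0.59 to 2.14), and En1 gave -0.32 (-0.79 to 0.16). All 12 dopaminergic markers had reads in each library and summed to 8717 to 11030 CPM in the captured libraries and to 570 and 735 CPM in the punched ones. The 12 oligodendrocyte markers summed to more than that in every captured library, from 19826 to 29524 CPM, so the captured values are not those of dopaminergic neurons alone.

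Per length, Fth1 led in 5 of 6 libraries and Mt2 in the remaining one. Fth1, the iron-storing ferritin heavy chain, stood highest in all 4 captured libraries, at 2522 to 2976 CPM per kb of its counted transcript. Mt1 took 146 to 293 CPM per kb there, Mt2 took 109 to 225 and Mt3 took 5.66 to 124. Next after Fth1 stood Mt2 in wild type, at 225, and Mt1 in the En1+/-, contralateral and infused libraries, at 260, 146 and 293. In wild type Mt1, at 163, stood below Gstm5 at 192 and Gpx1 at 191. Because the captured data are counted by transcript and the punched data by gene, levels of the 2 sets are not set in ratio to each other. In the punches, per kb of all exons of a gene, Fth1 stood at 559 CPM per kb after 6-OHDA and Mt2 at 219, with Mt1 at 74.5, below Srxn1 at 124, Gstm1 at 109, Hmox1 at 84.4 and Ftl1 at 82.0. After 6-OHDA then En2, Mt2 stood at 598 and Fth1 at 528, so that Mt2 was the highest of the 38. That order rests on lengths of 588 bases for Mt2 and 3469 bases for Fth1, summed over all annotated exons. At the lower end of the punches were Txnrd2, the mitochondrial thioredoxin reductase, at 1.28 and 1.10 CPM per kb, and the endoplasmic reticulum peroxiredoxin Prdx4, at 2.03 and 1.92.

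**Figure D1:**
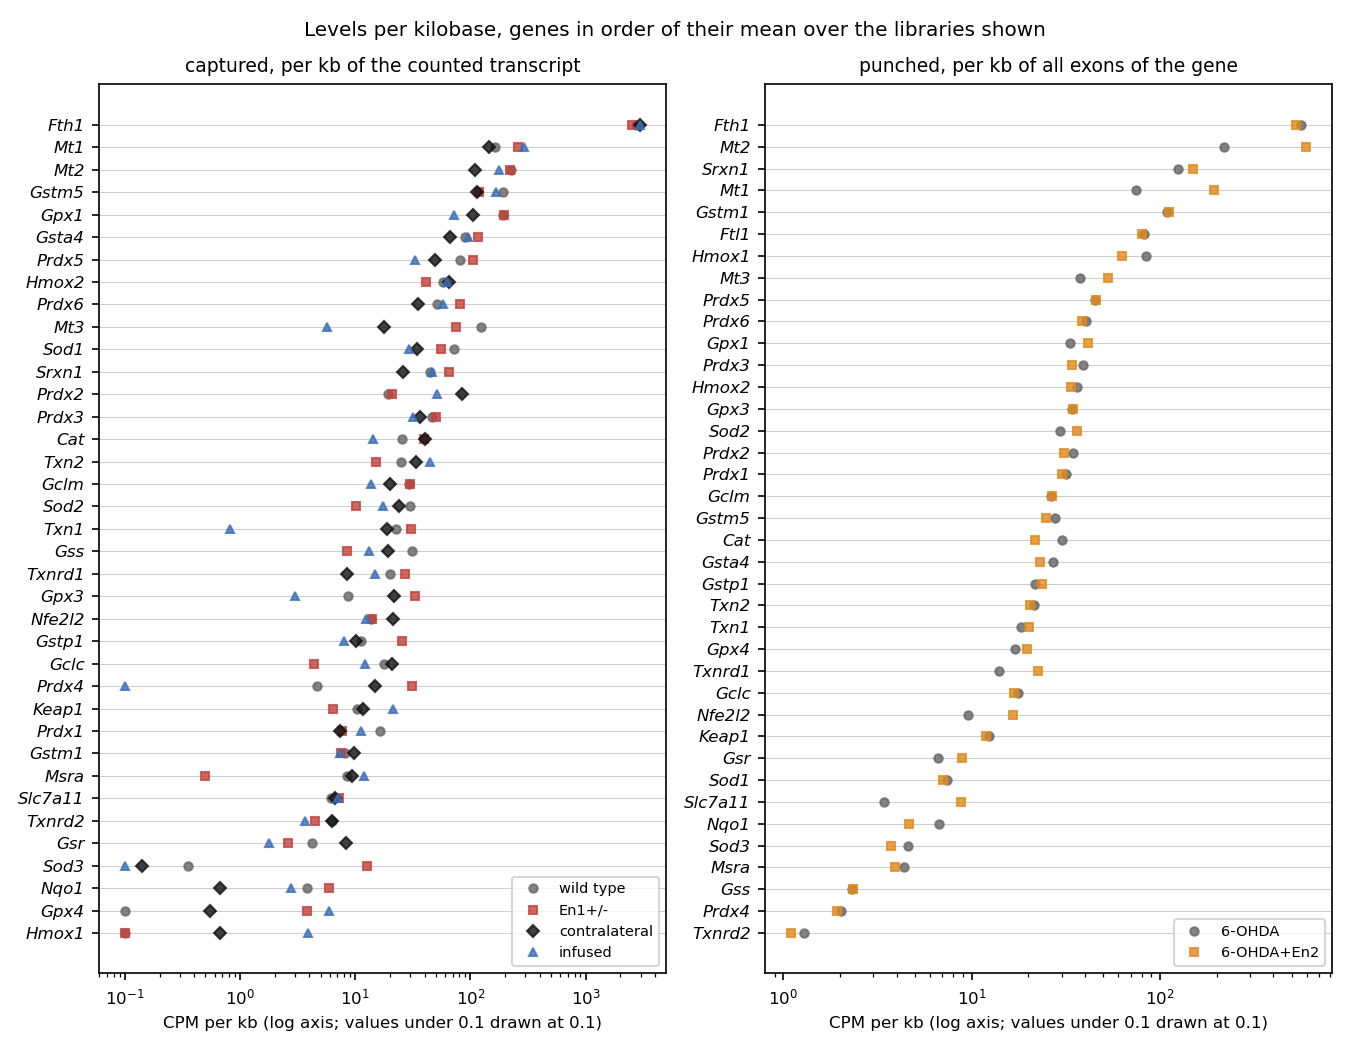
Levels per kilobase (CPM per kb, log axis) of the members in the 4 captured libraries (left) and the 2 punched libraries (right), 1 point per library, genes in order of their mean. Fth1 leads in the captured libraries at 2522 to 2976, and Mt2 reaches 598 after 6-OHDA then En2; Ftl1 has no length for its counted transcript and is missing at left.

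The third pair asked how En2 given after the toxin shifted RNA in the lesioned region. Of the 38 members, all measured, 3 passed the rule of size upward and 0 downward. These were Mt2, Mt1 and Slc7a11. They make up 7.89% of the members, and over all 15747 measured genes 5.89% passed the rule, 4.66% upward and 1.23% downward. The median log2 ratio was -0.01 over the members and 0.01 over all measured genes. The members were mostly close to even, with 32 of 38 within 0.5 of 0 on the log2 scale against 85.3% of all measured genes.

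Of all roles the metallothioneins had the highest median log2 ratio, 1.40. Mt2 had 2047 reads (129 CPM) after 6-OHDA and 6693 (351 CPM) after 6-OHDA then En2, 2.78-fold higher (2.65 to 2.92), log2 ratio 1.48 (1.40 to 1.55). Mt1 had 1478 reads (92.8 CPM) and 4600 (242 CPM), 2.65-fold higher (2.50 to 2.81). Mt3, the brain-enriched metallothionein, had 642 and 1080 reads, log2 ratio 0.52 (0.37 to 0.66). The intervals of Mt1 and Mt2 overlap each other, while that of Mt3 lies below both and under the size the rule asks for. Summed over the 3 genes, metallothionein RNA stood at 262 CPM after 6-OHDA and 650 CPM after 6-OHDA then En2. In these bulk samples more RNA per cell and more cells of a type that holds these RNAs cannot be told apart.

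Of the glutathione synthesis genes, only the cystine importer passed the rule. Slc7a11, the transporter chain that brings in cystine for glutathione, had 762 reads (47.8 CPM) after 6-OHDA and 2333 (123 CPM) after 6-OHDA then En2, 2.60-fold higher (2.40 to 2.83). The enzymes that build glutathione from its amino acids were close to even, with log2 ratios of -0.04 (-0.16 to 0.08) for Gclc, the catalytic subunit of glutamate-cysteine ligase, 0.04 (-0.03 to 0.12) for its modifier Gclm and 0.03 (-0.23 to 0.30) for glutathione synthetase Gss. Glutathione reductase Gsr had 289 and 465 reads, log2 ratio 0.45 (0.24 to 0.67).

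Nfe2l2, encoding NRF2, had 576 reads after 6-OHDA and 1206 after 6-OHDA then En2, 1.78-fold higher (1.61 to 1.97), below the size the rule asks for. Its inhibitor Keap1 had 922 and 1066 reads, log2 ratio -0.02 (-0.15 to 0.10). The classical NRF2 targets did not share 1 direction. The cytosolic thioredoxin reductase Txnrd1 had 1572 and 3037 reads, log2 ratio 0.72 (0.63 to 0.81), and the sulfiredoxin Srxn1, which repairs over-oxidized peroxiredoxins, had 5564 and 8024, log2 ratio 0.29 (0.25 to 0.34). Heme oxygenase 1 (Hmox1) had 2355 and 2106 reads, log2 ratio -0.39 (-0.48 to -0.31), and the quinone reductase Nqo1 had 166 and 138, log2 ratio -0.50 (-0.84 to -0.17). Nqo1 had the lowest ratio of all 38. These ratios thus ran from above 0 for the factor, Txnrd1 and Srxn1 to below 0 for Hmox1 and Nqo1. Slc7a11, Gclc and Gclm, described above, gave 1.38, -0.04 and 0.04. In the authors' deposited table for this pair, whose p-values were made without replicates, 5 of the 38 members had an adjusted p under 0.05, among 504 of 22834 rows. The authors' deposited table gives an adjusted p of 1.01e-12 for Mt2, 1.17e-10 for Mt1, 2.62e-08 for Slc7a11, 0.0173 for Txnrd1 and 0.0284 for Nfe2l2.

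**Figure D2:**
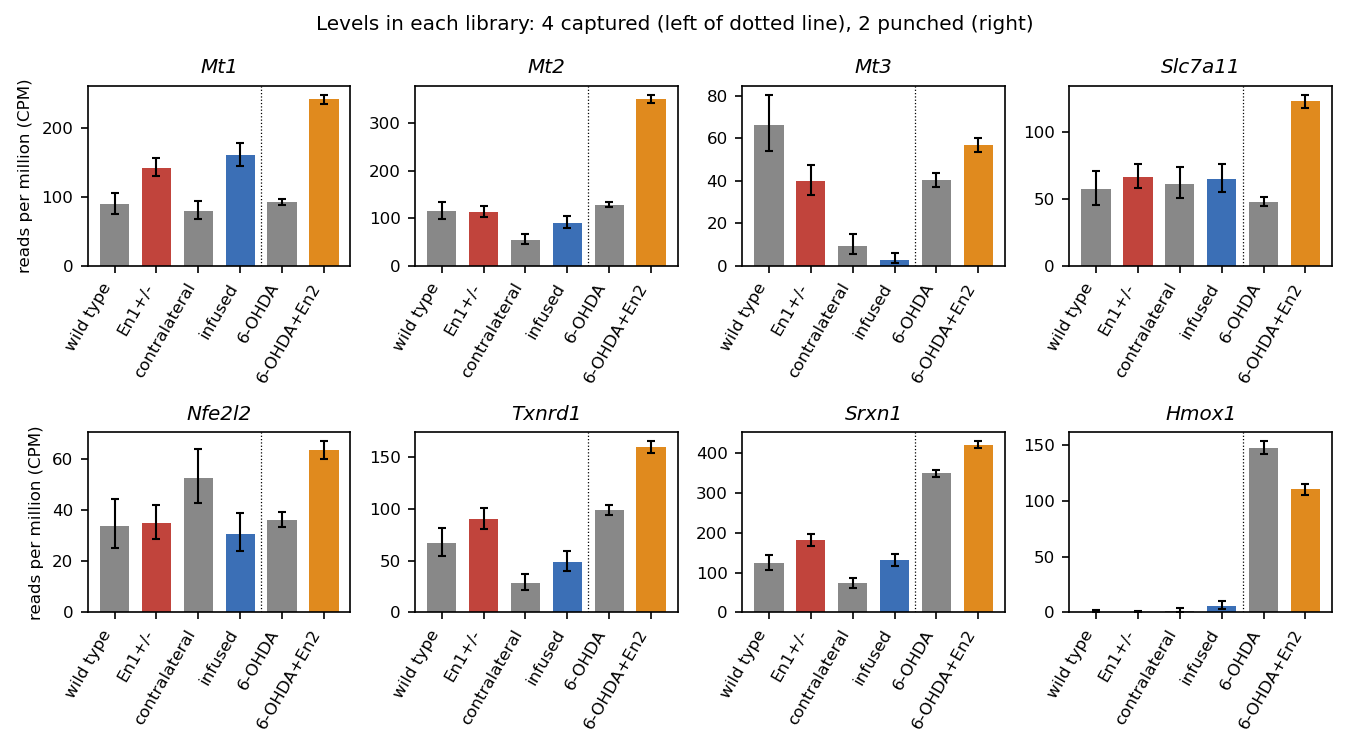
Levels (CPM) of 8 members in each library, with exact 95% Poisson intervals as bars, the 4 captured libraries left of the dotted line and the 2 punched ones right of it. Mt1, Mt2 and Slc7a11 stand higher after 6-OHDA then En2 than after 6-OHDA, at 242, 351 and 123 CPM, while Hmox1 stands high in both punches and near 0 in the captured libraries.

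The enzymes that act on superoxide and peroxide showed small ratios in the punches. Mitochondrial superoxide dismutase Sod2 had 4688 and 6884 reads, log2 ratio 0.32 (0.27 to 0.37), and catalase (Cat) had 1258 and 1083, log2 ratio -0.45 (-0.57 to -0.33). Cytosolic Sod1 gave -0.05 (-0.23 to 0.14) and extracellular Sod3 gave -0.28 (-0.53 to -0.03). The dismutases and catalase thus lay on both sides of 0, all under the size the rule asks for. The 6 peroxiredoxins lay between -0.18 for mitochondrial Prdx3 and 0.05 for Prdx5. The glutathione peroxidases lay between 0.04 for the secreted Gpx3 and 0.34 for cytosolic Gpx1, with 0.24 (0.07 to 0.42) for Gpx4, which reduces lipid peroxides. The glutathione transferases lay between -0.20 for Gsta4, which handles the lipid aldehyde 4-hydroxynonenal, and 0.15 for Gstp1. No member of these families reached the rule. Ferritin was even, with 30892 and 34853 reads of Fth1, log2 ratio -0.06 (-0.08 to -0.04), and 1750 and 2057 reads of the light chain Ftl1, a linear ratio of 1.00 (0.938 to 1.07). Methionine sulfoxide reductase Msra, which repairs oxidized methionine, gave -0.14 (-0.38 to 0.09). Among the remaining members, the lowest thioredoxin-system ratio was -0.20 (-0.64 to 0.23) for Txnrd2, cytosolic thioredoxin Txn1 gave 0.17 (-0.05 to 0.39) and the constitutive heme oxygenase Hmox2 gave -0.08 (-0.19 to 0.03).

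Genes that work with the members were counted in the same pair. Among 12 measured partners and regulators of NRF2, 1 passed the rule, the small Maf protein gene Maff, with 345 and 1202 reads, log2 ratio 1.57 (1.39 to 1.74). The NRF2 competitor Bach1 gave 0.64 (0.52 to 0.77), Mafg gave -0.08 (-0.16 to 0.01) and Rbx1, of the ligase that marks NRF2 for decay, gave -0.08 (-0.17 to 0.01). Of 18 other NRF2 target genes, 0 passed in either direction, and their ratios ran from -0.49 for Osgin1 to 0.56 for Akr1b8. Of 24 other glutathione and thiol enzymes 0 passed, with ratios from -0.60 for Gpx7 to 0.43 for the sestrin Sesn3. Slc3a2, the heavy chain that pairs with the Slc7a11 product and was picked after its values were seen, had 1698 and 2374 reads, log2 ratio 0.25 (0.16 to 0.34). Of 17 other glutathione transferase genes 2 passed downward, Gstm2 with 40 and 20 reads and Mgst2 with 23 and 13.

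The metal and oxidase lists held larger ratios. Of 13 zinc and copper genes 1 passed, the zinc and iron importer Slc39a14, with 1528 and 4193 reads, log2 ratio 1.22 (1.14 to 1.31). Another zinc importer, Slc39a1, gave 0.66 (0.55 to 0.78), and the zinc exporter Slc30a1, itself a target of MTF1, gave -0.24 (-0.35 to -0.12). Of 13 iron genes 2 passed upward and 1 downward. The siderophore-binding Lcn2 had 132 and 1895 reads, log2 ratio 3.61 (3.35 to 3.88), the ferroxidase ceruloplasmin (Cp) had 323 and 1148, log2 ratio 1.59 (1.42 to 1.78), and the iron exporter Slc40a1 had 228 and 114, log2 ratio -1.23 (-1.57 to -0.90). Of 9 measured genes of the superoxide-producing NADPH oxidase 3 passed upward. Its catalytic subunit Cybb had 41 and 354 reads, log2 ratio 2.86 (2.41 to 3.38), Rac2 gave 1.71 (1.29 to 2.16) and Ncf4 gave 1.06 (0.50 to 1.67).

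Markers of other cells moved in the same pair. All 6 measured neutrophil markers of 10 passed the rule upward, and the list summed to 9.36 CPM after 6-OHDA, with Camp, Ly6g, Ngp, Retnlg and S100a8 at 0, and to 102 CPM after 6-OHDA then En2, with only Camp at 0. Of 11 measured microglial markers 5 passed downward, and that list summed to 326 and 185 CPM. Astrocyte markers summed to 7540 and 8756 CPM, with 1 of 12, Sox9, passing upward, and dopaminergic markers to 570 and 735 CPM, with 1 of 11, Foxa2, passing downward. Endothelial markers summed to 578 and 417 CPM, with 2 of 10 passing downward, and oligodendrocyte markers to 32681 and 25821 CPM, with 0 of 12 passing in either direction. The part of these cells in the ratios of Mt1, Mt2, Slc7a11 and Cybb was not tested.

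The first pair asked which RNAs differ in captured nigral cells of mice heterozygous for En1. Of 35 measured members, 4 passed the rule upward in En1+/- and 4 downward, 22.9% of those measured. Over all 11500 measured genes 34.3% passed, 20.2% upward and 14.2% downward, a larger share than among the members. The median log2 ratio was 0.15 over the members and 0.10 over all measured genes. Hmox1, Gpx4 and Ftl1 had too few reads of their counted transcript to be measured. With reads summed over the transcripts of a gene, Gpx4 was measured and passed upward. Prdx6 then gave 1.32 and passed too, with 37.1% of all measured genes passing in that setting. These libraries are shallower, with a median of 156 reads in the better-covered library of a member against 1205.5 in the punches. Scaling matters here, because the En1+/- library held more reads outside ribosomal RNA. With library totals as the scale, which include mitochondrial ribosomal RNA, the median of all genes moved to 0.88. Of the calls over all genes 87.2% were then upward in place of 58.7%. With that scale 16 of 35 members passed upward and 2 downward, against 51.3% of all 11500 genes, 5139 upward and 756 downward.

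The 4 members higher in En1+/- were extracellular or secretory-route enzymes and a transferase. Extracellular superoxide dismutase Sod3 had 2 wild type reads and 156 En1+/- reads (1.32 and 47.7 CPM), log2 ratio 5.06 (3.41 to 8.34). Contralateral and infused libraries had 1 and 0 reads, so En1+/- was the single captured library with more than 2 reads. The secreted peroxidase Gpx3 had 21 and 173 reads, log2 ratio 2.02 (1.38 to 2.77). Prdx4 had 7 and 101 reads, log2 ratio 2.79 (1.76 to 4.20), and Gstp1 had 14 and 68, log2 ratio 1.26 (0.44 to 2.23), though its close paralog Gstp2 can share reads. For Sod3 the authors' deposited table gives an adjusted p of 0.684, and 0 of the 37 members it lists had one under 0.05.

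The 4 members lower in En1+/- belonged to glutathione synthesis, mitochondrial superoxide removal and methionine repair. Gclc had 91 wild type and 49 En1+/- reads, log2 ratio -1.88 (-2.42 to -1.38), while its modifier Gclm had 245 and 544, log2 ratio 0.15 (-0.07 to 0.37). Gss had 93 and 54 reads, log2 ratio -1.77 (-2.30 to -1.29). The drop was in reads as well as after scaling. Sod2 had 263 and 193 reads, log2 ratio -1.44 (-1.72 to -1.17), and Msra had 24 and 3, log2 ratio -3.72 (-6.38 to -2.28). Both enzymes that join the amino acids of glutathione were thus lower in the same library. With library totals as the scale, Gss at -0.996 and Sod2 at -0.66 no longer passed. Where 20 reads were asked of both libraries, a setting added after the data were seen, Gpx3, Gclc, Gss and Sod2 remained of the 8.

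With the main scaling the metallothioneins, NRF2 and the cystine importer did not pass in this pair, while with library totals Mt1, at 1.57, and Slc7a11, at 1.11, passed upward. Mt1 had 135 and 467 reads, log2 ratio 0.79 (0.51 to 1.08), Mt2 had 174 and 371, log2 ratio 0.09 (-0.17 to 0.36), and Mt3 had 100 and 131, 1.52-fold lower (1.16 to 2.00). The 3 neighbouring genes thus lay on both sides of 0. The cystine importer and both NRF2 genes were also under the size. Slc7a11 gave 0.33 (-0.03 to 0.71), Nfe2l2 gave 0.16 (-0.33 to 0.67), Keap1 gave -0.58 (-1.10 to -0.06) and Nqo1, with 9 and 30 reads, gave 0.71 (-0.37 to 2.00). Fth1 was even, with 3849 and 7666 reads, log2 ratio -0.01 (-0.06 to 0.05). NRF2, its inhibitor and the iron store were therefore all under the rule of size. Within the other roles, the peroxiredoxins ran from -0.99 (-1.56 to -0.44) for Prdx1 to Prdx4, the thioredoxin system from -0.61 for mitochondrial Txn2 to 0.65 for Srxn1, the transferases from -0.59 for Gstm5 to Gstp1, and Cat gave 0.75 (0.43 to 1.09). Prdx1 came closest to the rule without passing it. Hmox2 gave -0.38 (-0.68 to -0.07) and Gpx1 gave 0.15 (-0.04 to 0.35).

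Related genes were mixed in this pair. Among the NRF2 partners 4 of 12 measured passed upward and 0 downward, led by Maff with 2 and 29 reads and Bach2 with 21 and 157. Of 13 other measured NRF2 targets 3 passed upward and 3 downward, with the pentose phosphate enzyme Tkt at 89 and 527 reads, log2 ratio 1.56 (1.24 to 1.91), and the biliverdin reductase Blvra at 28 and 19, log2 ratio -1.52 (-2.48 to -0.67). Of 17 other glutathione and thiol enzymes 4 passed upward and 3 downward, among them Ccs, the copper chaperone of Sod1, with 42 and 4 reads, log2 ratio -4.17 (-6.33 to -2.93). Of 12 zinc and copper genes 4 passed upward and 1 downward, with a median log2 ratio of 0.55. The 1 downward was the zinc importer Slc39a14, with 67 and 19 reads, log2 ratio -2.77 (-3.64 to -2.07). Of 8 other transferase genes 4 passed upward and 0 downward, of 10 iron genes 3 upward and 2 downward, and of 2 measured oxidase genes 0 in either direction. Microglial markers summed to 506 CPM in wild type and 458 in En1+/-, with 2 of 11 measured passing in each direction, and endothelial markers to 585 and 662 CPM, with 2 of 8 passing upward and 1 downward. Astrocyte markers summed to 6326 and 6452 CPM with 0 of 12 passing. Oligodendrocyte markers summed to 29524 and 24829 CPM, with 0 of 12 passing upward and 2 downward. Dopaminergic markers summed to 9903 and 8717 CPM, with 1 of 11 measured passing upward and 2 downward. The part of these cells in the members' ratios was not tested.

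**Figure D3:**
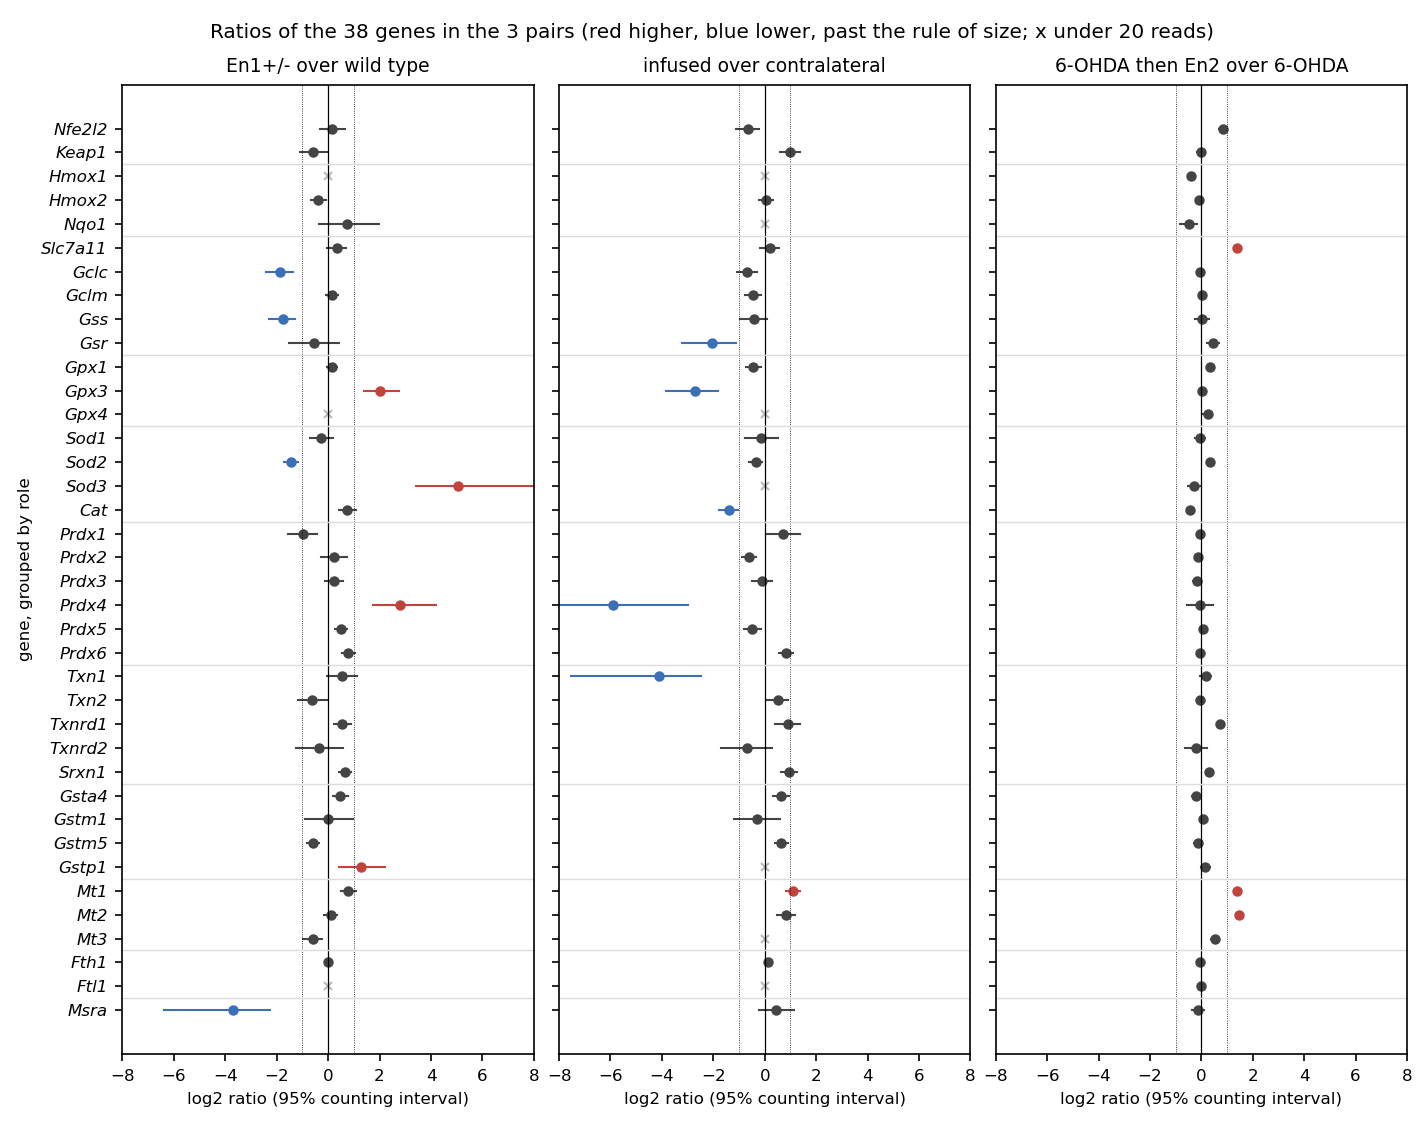
Log2 ratios of the 38 members in the 3 pairs with 95% counting intervals, grouped by role; red points passed the rule of size upward, blue ones downward, and crosses mark genes with under 20 reads. The punched pair is narrow apart from Mt1, Mt2 and Slc7a11, and the captured pairs spread from -5.92 to 5.06.

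The second pair asked what 7 days of En2 infusion did to RNA of captured cells. Of 31 measured members, 1 passed the rule upward on the infused side and 5 downward, 19.4% of those measured. Over all 11361 measured genes 37.7% passed, 20.7% upward and 17.0% downward. The median log2 ratio was -0.14 over the members and 0.08 over all measured genes. With library totals as the scale the median of all genes moved to 0.50, and 73.7% of all calls were upward in place of 54.9%. With that scale 9 of 31 members passed upward and 4 downward, against 42.9% of all 11361 genes, 3594 upward and 1280 downward. Hmox1, Nqo1, Gpx4, Sod3, Gstp1, Mt3 and Ftl1 were not measured. With reads summed over transcripts Gpx4 was measured and passed upward, with 39.9% of all measured genes passing in that setting. The infused protein is En2 by the labels, which were followed here, although the tables deposited for this pair have En1 in their names.

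The member that passed upward was again a metallothionein. Mt1 had 153 contralateral reads (80.2 CPM) and 371 infused ones (161 CPM), log2 ratio 1.10 (0.83 to 1.39). Mt2 had 106 reads (55.5 CPM) and 210 (91.0 CPM), log2 ratio 0.81 (0.47 to 1.16), under the size the rule asks for. Mt3 had 18 and 7 reads. In wild type Mt1 stood at 89.4 CPM and Mt2 at 115 CPM, so the infused library was above wild type for Mt1, while for Mt2 the Poisson intervals of the levels, 79.1 to 104 CPM infused and 98.7 to 134 CPM in wild type, overlapped.

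The 5 members lower on the infused side take part in removing peroxide or in keeping thiols reduced. Members with ratios above 0, among them Srxn1, Txnrd1 and Prdx6 at 0.94, 0.89 and 0.83, share these roles. Catalase had 202 contralateral and 86 infused reads, log2 ratio -1.40 (-1.79 to -1.03), and gave -0.98 with library totals as the scale. Gpx3 had 66 and 11 reads, log2 ratio -2.70 (-3.83 to -1.83), and Gsr had 42 and 11, log2 ratio -2.05 (-3.21 to -1.12). All 3 stood lower after infusion with intervals that end below 0. Txn1 had 38 and 2 reads, log2 ratio -4.10 (-7.52 to -2.47). Prdx4 had 28 and 0 reads, at least 10.5-fold lower against a floor of 3 reads in the infused library, a one-sided limit, and the 2-sided counting interval reaches down to 8.00-fold. Apart from catalase these rest on few reads, and with 20 reads asked of both libraries, a setting added after the data were seen, Mt1 and Cat remained of the 6.

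Several thioredoxin and NRF2 genes lay just under the rule of size on the infused side. Keap1 had 80 and 178 reads, log2 ratio 0.98 (0.59 to 1.38), Srxn1 had 140 and 303, log2 ratio 0.94 (0.65 to 1.24), and Txnrd1 had 54 and 113, log2 ratio 0.89 (0.41 to 1.39). Prdx6, which also acts on phospholipid peroxides, gave 0.83 (0.55 to 1.11), and Nfe2l2, with 100 and 71 reads, gave -0.66 (-1.13 to -0.21). Nfe2l2 and Keap1 thus stood on opposite sides of 0. Slc7a11 had 117 and 150 reads, log2 ratio 0.19 (-0.17 to 0.55), and Fth1 had 5234 and 6383, log2 ratio 0.11 (0.06 to 0.17). Within the other roles, Gstm1 gave -0.29 (-1.20 to 0.60) and Gstm5 0.64 (0.39 to 0.90), Sod1 gave -0.14 (-0.79 to 0.51), Gpx1 gave -0.45 (-0.74 to -0.15), Hmox2 gave 0.04 (-0.22 to 0.31) and Msra gave 0.45 (-0.20 to 1.13). Hmox1 had 2 and 14 reads, and Nqo1 had 2 and 10. The authors' deposited table for this pair listed all 38 members, of which 0 had an adjusted p under 0.05.

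Related genes were mixed on the infused side too, and part of the glial markers were higher. Of 10 measured NRF2 partners 3 passed upward and 1 downward, with the repressor Bach2 at 35 and 154 reads, log2 ratio 1.95 (1.43 to 2.54). Of 13 other NRF2 targets 4 passed upward and 2 downward, led by the epoxide hydrolase Ephx1 with 18 and 100 reads and Blvra with 18 and 89. Of 17 other glutathione and thiol enzymes 4 passed upward and 3 downward, with glutaredoxin Glrx at 34 and 273 reads, log2 ratio 2.82 (2.32 to 3.39), and the methionine sulfoxide reductase Msrb2 at 46 and 9, log2 ratio -2.46 (-3.74 to -1.48). Of 10 other transferase genes 3 passed upward and 1 downward, of 12 zinc and copper genes 3 upward and 0 downward, and of 10 iron genes 1 upward and 2 downward. The oxidase list had 4 of 6 measured genes passing upward, among them Rac2 with 0 and 96 reads. Microglial markers summed to 541 CPM contralaterally and 952 CPM after infusion, with 6 of 12 passing upward and 0 downward, and astrocyte markers to 7924 and 8604 CPM, with Gfap (155 and 1092 reads) and Sox9 passing upward and Gjb6 downward. The neutrophil list summed to 5.76 and 3.90 CPM, with Camp, Cxcr2, Ly6g, Mmp9, Mpo, Ngp, Retnlg and S100a8 at 0 in both libraries. The part of microglia and astrocytes in the ratio of Mt1 was not tested.

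How far captured libraries differ outside the pairs was read from the contralateral side against wild type. Both have the wild type genotype, and they differ in age and in the pump on the other side. Of 32 measured members 3 passed upward and 5 downward, 25% of those measured, against 27.5% of 10742 genes, 14.1% upward and 13.4% downward. Higher on the contralateral side were Prdx2, an abundant neuronal peroxiredoxin, with 47 and 258 reads, log2 ratio 2.15 (1.70 to 2.64), Gpx3 at 1.33 (0.63 to 2.14) and Prdx4 at 1.64 (0.47 to 3.14). The counted Prdx2 transcript is 1 of 8 and held 21.2% of the summed transcript counts. The sum over transcripts was not run for this comparison. Lower were Mt3 with 100 and 18 reads, log2 ratio -2.74 (-3.59 to -2.04), Txnrd1 at -1.19 (-1.71 to -0.71), Prdx1 at -1.12 (-1.80 to -0.48), Sod1 at -1.03 (-1.62 to -0.46) and Mt2 at -1.01 (-1.38 to -0.66). As many members passed here as in the En1+/- pair. The comparison shares its libraries with both captured pairs, so the counts are not independent of theirs.

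**Figure D4:**
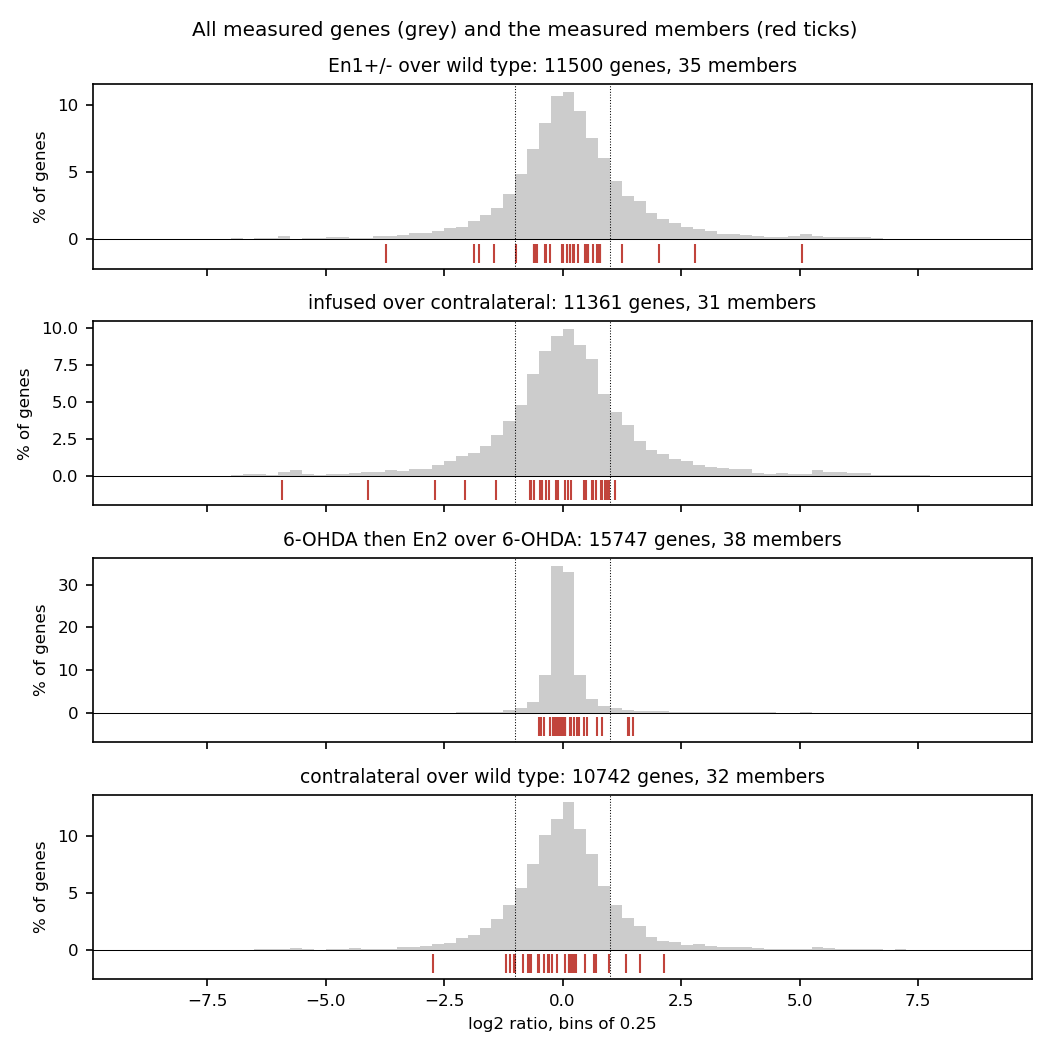
Share of all measured genes by log2 ratio, in bins of 0.25, with the measured members as red ticks, for the 3 pairs and for the contralateral side over wild type. The grey distribution of the punched pair is the narrowest, with 85.3% of genes within 0.5 of 0, and the members lie inside the spread of all genes in each panel.

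With the main scaling no member passed the rule in all 3 pairs, and Gpx3, Prdx4 and Mt1 passed it in more than 1. Such overlap was not counted over all measured genes, so these members have no background to be set against. Taken singly, 34.3% of all measured genes passed for En1+/- over wild type, 37.7% for infused over contralateral and 5.89% between the punches. With library totals Mt1 passed upward in all 3 pairs, and Srxn1, Txnrd1, Prdx6 and Gsta4 passed upward in both captured pairs. That scale moved all genes upward in the captured pairs. With it 5139 of 11500 genes passed upward in the En1+/- pair, 3594 of 11361 in the infusion pair and 714 of 15747 in the punches. Gpx3 had 21, 173, 66 and 11 reads in wild type, En1+/-, contralateral and infused libraries, and 989 and 1195 in the punches. Prdx4 had 7, 101, 28 and 0 reads, and 68 and 77 in the punches. Both were higher in En1+/-, lower on the infused side and close to even between the punches. Both also passed upward for the contralateral side over wild type, at 1.33 for Gpx3 and 1.64 for Prdx4. The captured ratios of Prdx4 rest on 7 wild type and 0 infused reads, and the infusion ratio of Gpx3 on 11 infused reads. Whether the opposite directions exceed the spread between captured libraries was not tested. Mt1 had a ratio above 0 in all 3 pairs, at 0.79, 1.10 and 1.40, and passed the rule in 2 of them with the main scaling. Slc7a11 stood between 57.0 and 66.3 CPM in the 4 captured libraries, a narrow range beside its 47.8 and 123 CPM in the punches. Hmox1 had 0, 0, 2 and 14 reads in the captured libraries, where a count of 0 allows up to 1.99 CPM in wild type and 0.917 CPM in En1+/- by the one-sided floor of 3 reads (2.44 and 1.13 CPM by the 2-sided Poisson interval), and 148 and 111 CPM in the punches. Collection by punch, the toxin and the way of counting differ together between these sets and cannot be told apart. In the captured libraries the counted transcript of Gpx4 and of Ftl1 held 0 to 13 reads, and 26.5% of the summed transcript counts of either gene. The punches held 464 to 2057 reads of these genes. Both have named pseudogenes in the annotation, as does Prdx6, and the Gstm and Gstp genes have close paralogs. How reads shared with such copies were counted is not stated in the labels.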

How the data were processed

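Total RNA of 6 SNpc samples, 1 per group, was sequenced. Bowtie, HTSeq and DESeq 1.8.3 are listed in the submitters' processing notes, with mm10 as build and no roles. The authors deposited read counts per transcript for the captured samples (95533 transcripts, of which 9402 without a gene identifier were left out) and counts per gene for the punches. Whether counting used strand is not stated in them. The authors' deposited tables also give log2 fold changes (captured pairs), a linear fold change or ratio (punches) and raw and adjusted p-values, which rest on no replicates. Their 6 mean columns per sample were not used. In the punched files 4 counts stood 1 column to the right and were moved back; 0 of them belong to the members.

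Each captured gene was represented by its most-read transcript over the 4 captured libraries. The share of a member's summed transcript counts that this transcript held ran from 18.9% for Gstm5 to 100%. The 2 libraries of each pair were brought to a common scale with median-of-ratios size factors (genes lacking reads in either library left out), each scaled count was raised by 0.5, and the log2 ratio (treated or mutant over control) got an exact 95% Clopper-Pearson interval for counting error. The interval of a single level is exact Poisson, and a count of 0 was set to a floor of 3 reads for bounds. Reads are not independent molecules. Lengths and positions came from GENCODE M21 on GRCm38. Alternatives were library totals, TMM, no minimum beyond 1 read, a minimum of 100 reads, a pseudocount of 5 and the sum over transcripts. Another, added after the data were seen, was 20 reads in both libraries. Library totals summed the counts of all represented genes, mitochondrial ribosomal RNA included. The steps were tested on simulated data.

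Named by rule were members past the rule of size, the highest and lowest of each role, and Nfe2l2, Keap1, Hmox1, Nqo1, Mt1, Mt2, Mt3 and Slc7a11 in every pair, with up to 2 highest and 2 lowest genes of each related list. Not every gene of the related lists that the rule takes is printed. The members and lists were chosen with earlier results of these data known. Tools were Python 3.11.15, pandas 2.3.3, numpy 2.4.6, scipy 1.17.1, matplotlib 3.10.9, R 4.3.3 and, for the TMM factors alone, edgeR 4.0.16.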

Additional observations from a re-analysis of the deposited data

How the results depend on the processing

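The same 3 members, Mt1, Mt2 and Slc7a11, passed the rule of size in the punched pair under every setting run, while the count over all genes there moved from 927 to 542 with at least 100 reads and to 564 when both libraries had to reach 20 reads, an alternative that was chosen with the data already seen. In the En1+/- pair library totals gave 18 of 35 members, against 51.3% of all measured genes, and a median of 0.93. At least 100 reads gave 4 of 24 members, 1576 of 6484 genes (24.3%) and a median of 0.28. With 20 reads in both libraries 4 of 27 members and 1990 of 8715 genes (22.8%) passed. In the infusion pair library totals gave 13 of 31 members, against 42.9% of all measured genes, and a median of 0.28. At least 100 reads gave 2 of 21 members, 1471 of 5651 genes (26.0%) and a median of 0.11. With 20 reads in both 2 of 26 members and 1971 of 8597 genes (22.9%) passed, with a median of 0.079. The stricter minimums measure fewer genes by construction. No called member changed sign under any setting run. The counts of members stayed within 1.5 times under TMM, a minimum of 1 read, a pseudocount of 5 and the sum over transcripts. The sum over transcripts added Gpx4 upward in both captured pairs and Prdx6 upward in the En1+/- pair. Depth limits the captured pairs most, where the better-covered library of a member held a median of 156 and 150 reads. No paired analysis was possible because each group holds 1 sample, so a block leaves no residual degrees of freedom and the ratio within a pair stays as it is.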
